A study of Mus musculus with 4 samples.

Results

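The genes of the mitochondrial respiratory chain and ATP synthase were followed through 4 sorted populations of differentiating mouse embryonic stem (ES) cells. Members were chosen by symbol alone, as those beginning with Nduf, Uqcr, Atp5 or Cox followed by 4, 5, 6, 7 or 8, together with Sdha, Sdhb, Sdhc and Sdhd. Each gene was read from its brightest probe set by mean log2 signal, and 85 of the 90 genes found on the array had a signal above 100 in at least 1 population. They were set beside all 9468 genes above 100 in at least 1 population, of 18194 genes measured in all.

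The respiratory chain sits in the inner mitochondrial membrane and passes electrons from NADH and succinate to oxygen. Complex I (NADH dehydrogenase) and complex II (succinate dehydrogenase) feed electrons to ubiquinone, complex III hands them to cytochrome c, and complex IV (cytochrome c oxidase) reduces oxygen. Complexes I, III and IV pump protons, and complex V (ATP synthase) uses the resulting gradient to make ATP. Most subunits are encoded in the nucleus and imported, and these are the genes described here. In red cell precursors, haem synthesis also begins and ends in mitochondria.

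All 4 populations came from 1 heterozygous ES cell line, Runx1(Venus/+), derived from CCE cells, in which a Venus reporter was inserted into 1 Runx1 allele behind the proximal promoter P2. The endothelial-like cells used as the starting point therefore carried the same altered allele as the blood cells, and no wild-type array was used here. Cells were grown on OP9 stroma, a mouse bone marrow line that supports blood formation, and were sorted at day 6. Population 1 was Runx1-/VE-cadherin+/Flk1+, population 2 was Runx1+/VE-cadherin+/CD41-, population 3 was Runx1+/VE-cadherin+/CD41+ and population 4 was Runx1+/VE-cadherin-/CD41+. Runx1 status refers to Venus fluorescence.

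The values used here held 1 array for each population, and the further set of these populations that the study ran on Agilent arrays was not analysed here, so no replicate spread, error or test between populations could be given, and every difference below compares 4 single arrays. Signals are intensities on a linear scale. Those under 100 were raised to 100 before a ratio was taken, which makes ratios to them lower bounds. Signals of different genes come from different probes, so they were not read as relative amounts of RNA and served only to rank probe sets by brightness. Between 8097 and 8666 genes lay above 100 on each array, and 80, 83, 84 and 84 of the 85 members did so in populations 1 to 4.

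Runx1 and Cdh5 followed the sort labels. Runx1 had signals of 55.3, 358, 1297 and 2440 in populations 1 to 4. Cdh5, which encodes VE-cadherin, read 5683, 3946, 4849 and 40.9. Itga2b, which encodes CD41, read 667, 1135, 2418 and 1609.5, so its signal was also above 100 in population 2, which was sorted as CD41-. The summed signal of 10 endothelial markers was 30182 in population 1, 19279 in population 2, 23509 in population 3 and 1996 in population 4. The 8 erythroid markers with a probe set of their own all passed 100, and their summed signal was 248, 378, 4926 and 50371, with Gata1 at 15.1, 26.9, 50.7 and 2065. Between populations 1 and 4, all 8 were up by 2-fold or more and all 10 endothelial markers down by 2-fold or more. Of 12 stromal markers, 7 passed 100, and their summed signal was 4952, 3763, 2886 and 2220, while Col1a1, Dcn, Lum, Pdgfra and Thy1 stayed below 100 on every array. Hence population 4 differed from the others in its endothelial and erythroid transcripts along with everything described below. The part of these transcripts in the results was not tested. In such bulk samples, fewer cells of a type and less RNA per cell cannot be told apart.

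The respiratory chain genes were higher in population 4 than in population 1 almost without exception, by small amounts. The median member was 1.82-fold higher (log2 ratio 0.86), against 1.29-fold (log2 ratio 0.36) for all genes above 100. As deposited, 84 members were higher in population 4, while Ndufa4l2 was below 100 in both, and after centring each array on its median 6 of the 85 members were lower. Of the 85 members, 32 (37.6%) reached 2-fold, compared with 22.4% of all genes. No member was at least 2-fold lower, compared with 12.9% of all genes. Among the members, 76 of 85 lay above the median of all genes.

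The order of the populations recurred from gene to gene. The signal was higher at every step from population 1 to population 4 in 65 of the 85 members (76.5%), compared with 27.9% of all genes. Population 4 held the highest signal of 78 members (91.8%), compared with 51.8% of all genes. Population 1 held the lowest signal of 80 members (94.1%), compared with 45.5% of all genes. Genes of one array share its scaling, so these counts describe the 4 arrays and not repeated measurements. Centring each array on its median reduced the number of members higher at every step to 17 (20.0%), with 10.4% of all genes. Quantile normalisation gave 41 members (48.2%), with 12.4% of all genes.

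**Figure D1:**
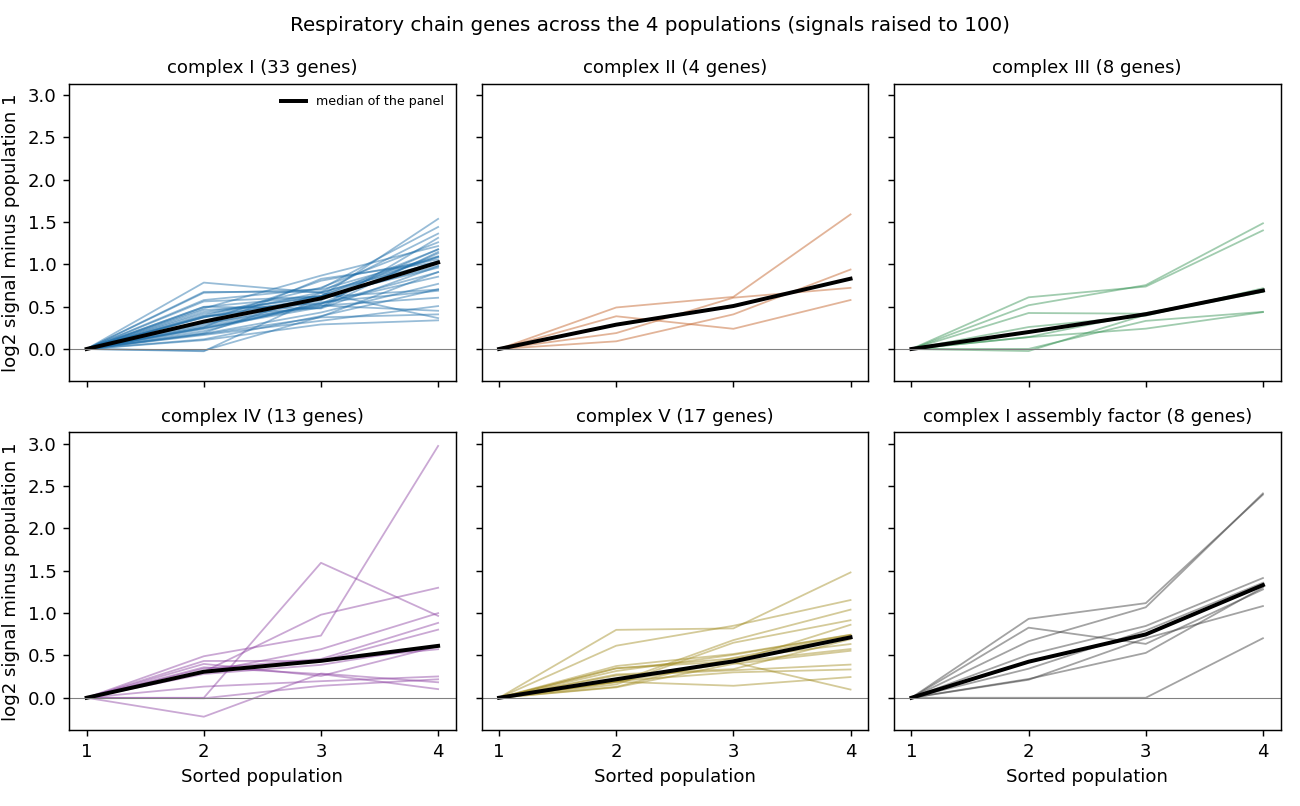
Log2 signal of each respiratory chain gene minus its value in population 1 (vertical axis), with signals raised to 100, across the 4 sorted populations (horizontal axis), 1 panel per complex and 1 line per gene, 1 array per population. Black lines are panel medians, which reach 1.02 for complex I, 0.61 for complex IV and 1.33 for the complex I assembly factors in population 4, while the line that reaches 2.98 in the complex IV panel is Cox6b2. The 2 genes of the Ndufa4 family are not drawn.

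Signals of all genes above 100 were also higher on the later arrays, with a median log2 signal of 8.52, 8.54, 8.85 and 8.81 in populations 1 to 4, so the members were read against the median ratio of all genes. That median ratio was 0.00 from population 1 to 2, 0.22 from 2 to 3, 0.06 from 3 to 4 and 0.36 from 1 to 4 on the log2 scale. The members' medians for the same steps were 0.30, 0.21, 0.34 and 0.86. Relative to all genes the members were thus higher by 0.30 at the first step and by 0.28 at the last. They differed by -0.01 at the middle step, at which the sort separated CD41- from CD41+ cells. The 0.00 of all genes at the first step was a tie, since 4658 genes were higher, 3919 lower and the others equal once raised to 100. The 1094 genes with a mean log2 signal between the members' quartiles (10.61 and 12.14) had step medians of 0.15, 0.21 and 0.04. Measured against these 1094 genes, the members' excess was smaller at the first step than at the last. From population 1 to 4 the difference from all genes was 0.50 as deposited, 0.47 after centring, 0.48 after quantile normalisation and 0.54 after scaling on the hybridisation controls. For the middle step it was -0.01, -0.09, 0.03 and 0.01, so its sign turned with the scaling.

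Few members moved far within a single step. From population 1 to 2, 0 of 85 members were up by 2-fold and 0 were down by 2-fold, compared with 2.92% and 4.19% of all genes. From population 2 to 3 only Cox7a1 was at least 2-fold higher, and no member was at least 2-fold lower, compared with 3.11% and 0.253% of all genes. From population 3 to 4 the members at least 2-fold higher were Cox6b2, Ndufaf1 and Ndufaf4, compared with 7.94% of all genes. No member was at least 2-fold lower at that step, compared with 12.2% of all genes. Probe sets of one gene showed how far probes agreed, but not the error between arrays, because they share the same RNA and arrays. In 65 pairs of a member's chosen probe set and another one above 100, from 44 members, the log2 ratios differed by medians of 0.11, 0.10 and 0.09 at the successive steps and of 0.15 between populations 1 and 4. The sign of the last was shared in 64 pairs, and the exception was a dim Ndufs4 probe set whose signals lay below 100 in both populations. The largest difference between populations 1 and 4 was 1.26, in Cox7c, whose second probe set never exceeded 107.2.

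Complex I accounted for 33 members and for 17 of the 32 that reached 2-fold between populations 1 and 4. Its median log2 ratio was 1.02, with a range from 0.34 to 1.54, and 27 of the 33 genes were higher at every step. The core subunits carry the flavin and the iron-sulphur clusters along which electrons travel, and 6 of them were measured, with a median of 1.10. The 27 supernumerary subunits, which surround this core, had a median of 0.98.

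Ndufs7, a core subunit that holds the last iron-sulphur cluster before ubiquinone, had signals of 1303, 1945, 2137 and 3539 in populations 1 to 4, a 2.72-fold difference between the ends. Ndufs1, the largest core subunit, read 591, 701, 832 and 1468, or 2.48-fold. Both had their widest step from population 3 to 4. Ndufs3 and Ndufs8 were 2.21-fold and 2.08-fold higher, while Ndufv1 and Ndufv2, which belong to the NADH-binding module, were 1.88-fold and 1.98-fold higher.

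Ndufa5, a supernumerary subunit of the peripheral arm, showed the largest difference in complex I, with signals of 835, 1232, 1283 and 2422 and a ratio of 2.90-fold. By this probe set populations 2 and 3 were nearly level, and the difference lay before and after them. Ndufab1, the mitochondrial acyl carrier protein, had the same shape, reading 1543, 2463, 2459 and 3969, or 2.57-fold. A second, dimmer Ndufa5 probe set read 403, 739, 920 and 1690, or 4.19-fold. The level middle step and the ratio of Ndufa5 therefore depended on the probe set. The other complex I genes at least 2-fold higher in population 4 were Ndufc1, Ndufv3, Ndufb2, Ndufb8, Ndufb9, Ndufa12, Ndufb3, Ndufb7, Ndufb10, Ndufs5 and Ndufb6, with ratios between 2.03 (Ndufb6) and 2.40 (Ndufc1).

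A few complex I genes departed from the common profile. Ndufa8, a subunit with disulphide-bonded helices, read 2079, 3579.6, 3296 and 2676, so population 2 was the highest and population 4 stood only 1.29-fold above population 1. Ndufs4 read 1037, 1234, 1479.6 and 1418, level between populations 3 and 4. Ndufb11 had the smallest ratio of the complex, 1.26-fold, with signals of 4877, 5242, 5963 and 6167. Ndufb5, which the study lists beside regions bound by Runx1, read 3303, 3729, 4279 and 4386, a 1.33-fold difference. Ndufb5 thus lay towards the low end of its complex.

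The complex I assembly factors help to build the enzyme but are absent from the finished complex. Their median log2 ratio was 1.33 over 8 genes, and 7 of these reached 2-fold between populations 1 and 4. Ndufaf1, which acts on the membrane arm, read 114, 181, 239 and 608, or 5.33-fold. Ndufaf4 read 287, 547, 622 and 1512, or 5.28-fold, and its second probe set was 5.12-fold higher. Most of this lay at the last step, where population 4 exceeded population 3 by 2.54-fold for Ndufaf1 and 2.43-fold for Ndufaf4. The other factors at least 2-fold higher were Ndufaf2 (2.67-fold), Ndufaf8 (2.56-fold), Ndufaf3 (2.47-fold), Ndufaf6 (2.43-fold) and Ndufaf5 (at least 2.12-fold, from 81.4 to 212). Ndufaf7 was measured above 100 in population 4 alone, at 163. All 8 assembly factors were among the 28 members with the dimmest probe sets, where the 9 genes of complex I had a median of 1.09 and the 5 genes of complexes IV and V one of 1.2999. Without the assembly factors, the median of the remaining 77 members was 0.80.

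Complex II is the only respiratory complex that also works in the tricarboxylic acid cycle, and all 4 of its subunits are nuclear. Sdhd, a membrane anchor, read 1111, 1561, 1702 and 3344, or 3.01-fold between the ends. Sdhc, the other anchor, read 648, 691, 861 and 1243, or 1.92-fold. By their brightest probe sets the catalytic subunits differed less. Sdha, which binds succinate and flavin, read 1173, 1336, 1786 and 1935, or 1.65-fold, and the iron-sulphur subunit Sdhb read 1642, 2147, 1937 and 2452, or 1.49-fold. By these probe sets all 4 genes were lowest in population 1 and highest in population 4. Most of the step lay between populations 3 and 4 for Sdhd and between populations 2 and 3 for Sdha. A second Sdha probe set read 536, 792, 847 and 1089, or 2.03-fold, with its widest step from population 1 to 2. Second sets gave 1.43-fold for Sdhc and 2.27-fold for Sdhd. The order of Sdha and Sdhc therefore depended on the probe set.

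Complex III had 8 members with a median log2 ratio of 0.69. The small subunits Uqcr11 and Uqcr10 stood apart from the others. Uqcr11 read 1411, 2019, 2380.4 and 3948, or 2.80-fold, and Uqcr10 read 1015, 1549.9, 1693 and 2680.0, or 2.64-fold. The core proteins Uqcrc1 and Uqcrc2 were 1.64-fold and 1.60-fold higher, as was Uqcrfs1, the Rieske iron-sulphur protein. By their chosen probe sets Uqcrb and the hinge protein gene Uqcrh had the smallest ratios, 1.35-fold and 1.36-fold. Uqcrb read 10299.5, 11345, 12166 and 13929.8. A second, dimmer Uqcrb probe set read 2042, 2746, 3354 and 3810, or 1.87-fold, so the low place of Uqcrb depended on the probe set. The second Uqcrh set gave 1.42-fold.

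Complex IV contributed 13 members, with a median of 0.61 and the widest range, from 0.10 to 2.98. The widespread subunits Cox4i1 and Cox6a1 had small ratios by their chosen probe sets, and only Cox7a2l (1.14-fold) and Cox8c (1.07-fold) had smaller ones in this complex. Cox4i1 read 7637, 7606, 8423 and 8884, or 1.16-fold, and Cox6a1 read 9168, 10048, 10502 and 10919, or 1.19-fold. After centring both of these probe sets were lower in population 4 than in population 1, by log2 ratios of -0.08 and -0.04. A second, dimmer Cox6a1 probe set read 2878, 3674, 3826 and 5273, or 1.83-fold as deposited. Cox5a, listed by the study beside bound regions, read 6611, 8723, 7903 and 10083, or 1.53-fold. Cox8a, listed likewise, read 2229, 2750.5, 3317 and 4457, and its log2 ratio of 0.9999 lay just short of the 2-fold limit. Cox7c read 102, 127, 202 and 252, or 2.46-fold, with all populations near the lower end of the measurable range. A second Cox7c probe set exceeded 100 only in populations 3 and 4, at 107 and 103.

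Complex V had 17 members with a median of 0.71, of which 15 were higher at every step. Atp5a1 and Atp5b encode the alpha and beta subunits of the catalytic head. Atp5a1 was 1.67-fold higher in population 4 than in population 1, and Atp5b 1.26-fold, reading 6222, 7132, 7661 and 7844. The members at least 2-fold higher were Atp5g1, Atp5md (2.23-fold) and Atp5l (2.06-fold). Atp5md and Atp5l belong to the membrane part of the enzyme and are linked with its dimers.

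**Figure D2:**
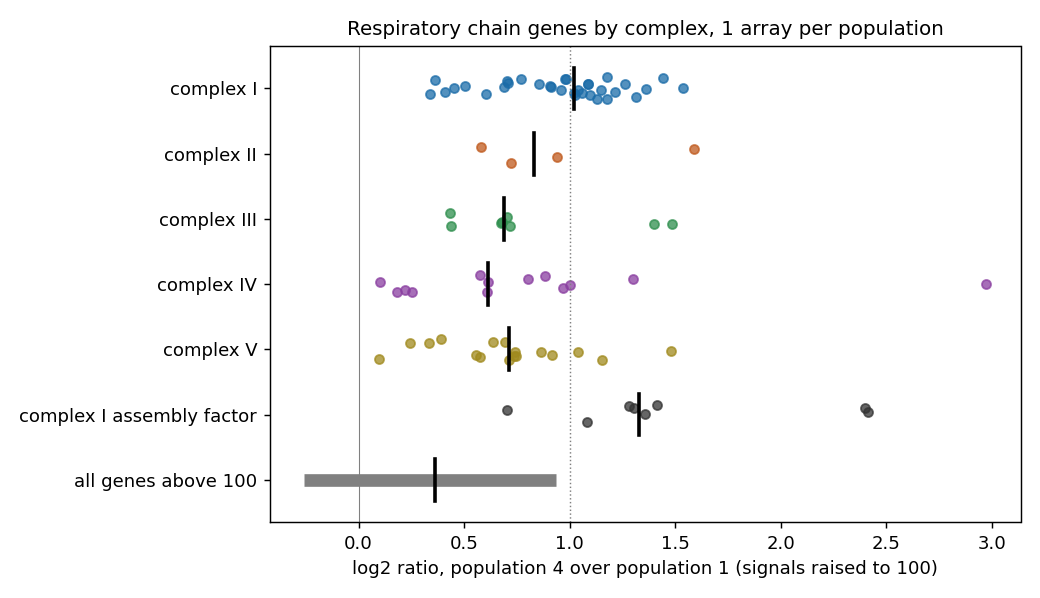
Log2 ratio of population 4 over population 1 for each respiratory chain gene (horizontal axis, signals raised to 100), 1 point per gene in rows by complex, with black bars at the row medians and a grey bar from the lower to the upper quartile of all genes above 100. Dotted and solid vertical lines mark 2-fold and no difference. The medians run from 0.61 in complex IV to 1.33 in the assembly factors, all right of the median of all genes at 0.36. The 2 genes of the Ndufa4 family are not drawn.

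The size of the ratio also went with the brightness of the probe set. Within 1 gene, a dimmer set gave the larger log2 ratio for Cox6a1 (0.87 against 0.25), Uqcrb (0.90 against 0.44) and Atp5pb (0.92 against 0.39). It gave the smaller one for Sdhc (0.51 against 0.94) and Sdhd (1.18 against 1.59). The ratios quoted therefore depend on the choice of the brightest set, and how often each direction occurred was not counted. Ranked by mean log2 signal, the 28 dimmest members had a median log2 ratio of 1.16. The next 28 had a median of 0.98, and the 29 brightest had a median of 0.61. All genes within the same limits of signal had medians of 0.38, 0.41 and 0.28, so the members exceeded them in each range. Complexes IV and V supplied 19 of the 29 brightest members, and complex I supplied 6. Among these bright members the medians were 0.74 for complex I and 0.58 for complexes IV and V. Among the middle members they were 1.00 for complex I (18 genes) and 0.96 for complexes IV and V (6 genes). Among the dimmest members they were 1.09 for complex I (9 genes), 1.33 for its assembly factors (8 genes) and 1.2999 for the 5 genes of complexes IV and V. These 5 were Cox6b2, Cox7a1, Cox7c, Cox8c and Atp5g1, all but Atp5g1 with signals near or below 100 in population 1. The difference between complex I and complexes IV and V was therefore small in the middle range and did not hold its direction in the dim range. The part of signal strength in it was not tested.

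Several subunits are encoded by more than one gene, with isoforms that are typical of particular tissues. The c subunit of ATP synthase, which forms the rotating ring, has the same mature sequence from Atp5g1, Atp5g2 and Atp5g3. Atp5g1 read 1068, 1863, 1885 and 2981, or 2.79-fold between the ends, the largest ratio in complex V. Atp5g2 read 4302, 4905, 5752 and 4602, with population 3 the highest and the ends 1.07-fold apart. Atp5g3 read 7623, 8694, 8409 and 9033, or 1.185-fold. The 3 genes therefore had unequal ratios on the same arrays. After centring, Atp5g2 and Atp5g3 were lower in population 4 than in population 1, by log2 ratios of -0.20 and -0.05, and Atp5g1 stayed higher.

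Cox6b2, known as the testis isoform of a complex IV subunit on the intermembrane side, had the largest difference of all members. It read 56.4, 141, 166 and 786, with population 4 at least 7.86-fold above population 1 and 4.73-fold above population 3. The widespread isoform Cox6b1 read 6616, 8038, 8662 and 10118, or 1.53-fold. Cox7a1, the heart and muscle isoform, was 1 of 5 members that were highest in population 3, with Ndufs4, Cox7a2l, Atp5g2 and Ndufa4l2. It read 67.1, 86.0, 302 and 196, with population 3 at least 3.02-fold above population 2, and population 4 between them. Its counterpart Cox7a2 read 6589, 8905, 8919 and 11511, or 1.75-fold. Cox7a2l, a related protein that joins complexes III and IV into supercomplexes, read 4238, 3629, 5168 and 4810.3, with populations 3 and 4 above populations 1 and 2 as deposited and a log2 ratio of -0.11 between populations 1 and 4 after centring.

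The other tissue-restricted isoforms stayed near or below the minimum. Cox4i2, Cox6a2, Cox8b and Cox7b2 never exceeded 36.3, 76.0, 10.1 and 2.89. Ndufb4, which is a complex I subunit and not such an isoform, was not measurable with its only probe set (highest 14.4). The members just above the minimum were Ndufa4l2 (highest 119.9), Cox8c (highest 149.8) and Ndufaf7 (highest 163). Cox8c read 117, 149.8, 142 and 125, showing no step above 1.5-fold. Ndufa4l2, known to respond to low oxygen, read 14.0, 107, 119.9 and 82.6, above the minimum only in populations 2 and 3. Its relative Ndufa4, now counted with complex IV, read 2934, 4135, 4067 and 5341, or 1.82-fold.

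**Figure D3:**
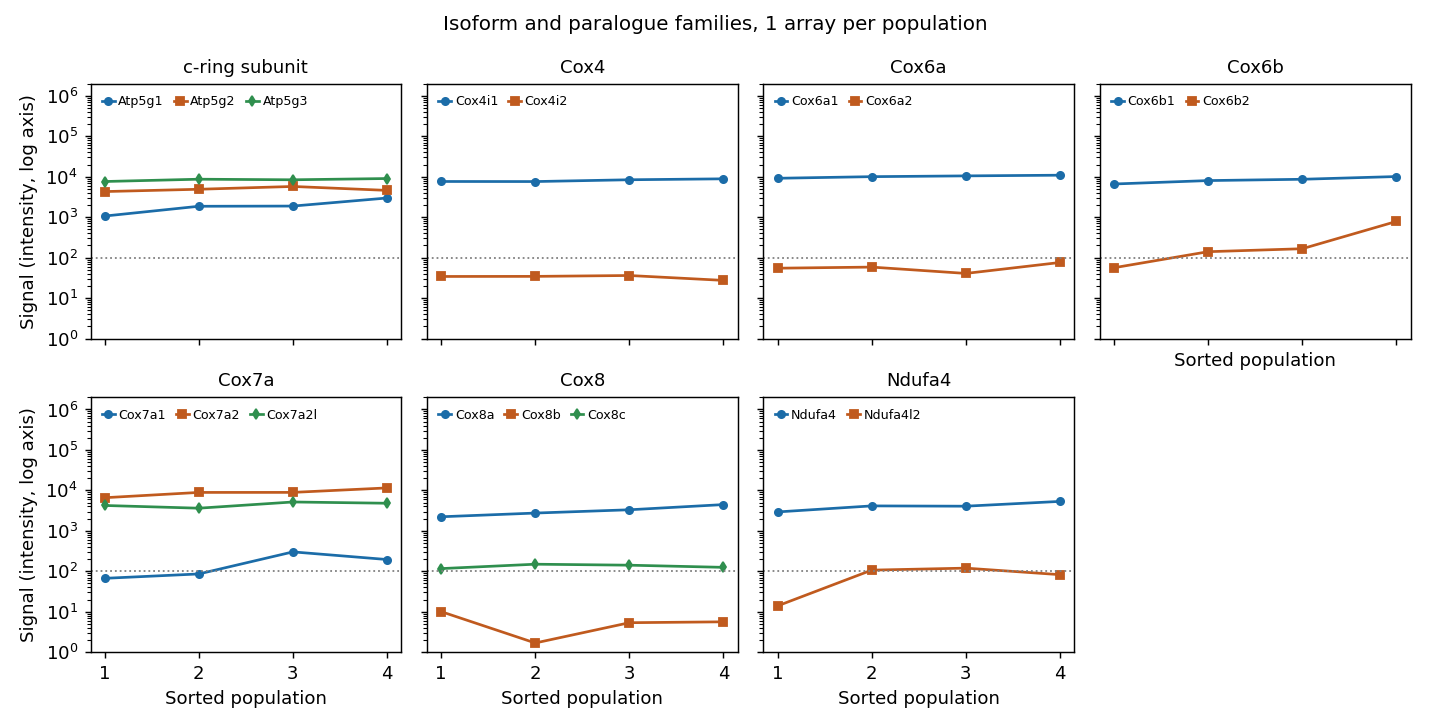
Signal (intensity, vertical log axis) in the 4 sorted populations (horizontal axis) for genes of 7 isoform or paralogue families, 1 line per gene and 1 array per population, with the dotted line at a signal of 100. Only the shapes can be compared, since probes differ between genes. Cox6b2 goes from 56.4 to 786, Cox7a1 is highest in population 3 at 302, and Atp5g2 and Atp5g3 are nearly level while Atp5g1 goes from 1068 to 2981.

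Promoter sequences were read from RefSeq for GRCm38.p6, from 250 bases before to 50 bases after each start, for 71 of the 85 members and 27025 genes in all. Core letters of 4 kinds of factor were looked for on both strands. Those of NRF1 (GCGCATGC), a factor known to bind many respiratory genes, were found in 11 of the 71 members (15.5%), in 3.05% of all genes and in 6.58% of the genes above 100. The ETS core (CCGGAAG), the kind of site used by GABP, was found in 19 members (26.8%), in 9.93% of all genes and in 21.8% of genes above 100. The YY1 core (AAGATGGC) was found in 10 members (14.1%), 3.19% of all genes and 5.86% of those above 100. At least 1 of these 3 cores was found in 33 members (46.5%), 14.9% of all genes and 30.9% of those above 100. The RUNX core (TGTGGT), of interest because the cells were sorted on Runx1, was found in 8 members (11.3%), 18.9% of all genes and 14.3% of those above 100. A match is a description of letters and not a bound site.

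Holding an NRF1 core did not go with a larger ratio. Between populations 1 and 4 the median log2 ratio was 0.72 in the 11 members with it and 0.91 in the other members. The following stretches of 30 bases are shown because they carry the NRF1 core in members from both ends of the range, namely Ndufaf4 (5.28-fold), Atp5k (1.82-fold), Sdhb (1.49-fold), Ndufa8 (1.29-fold), Cox6a1 (1.19-fold) and Atp5g2 (1.07-fold). Each is written along its gene's strand with the core, or its reverse complement GCATGCGC, in capitals. The letters GCGCATGCGC hold the core on both strands at once, with an overlap, as in Ndufaf4, Atp5k, Cox6a1 and Atp5g2. The positions are chr4:24897959-24897988 (plus strand) for Ndufaf4, chr5:108434431-108434460 (minus strand) for Atp5k, chr4:140961206-140961235 (plus strand) for Sdhb, chr2:36049339-36049368 (minus strand) for Ndufa8, chr5:115349102-115349131 (minus strand) for Cox6a1 and chr15:102671071-102671100 (minus strand) for Atp5g2.
Ndufaf4: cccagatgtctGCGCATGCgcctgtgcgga
Atp5k: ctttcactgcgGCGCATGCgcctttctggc
Sdhb: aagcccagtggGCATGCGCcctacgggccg
Ndufa8: gcgcttgcgcgtcgctggagacGCATGCGC
Cox6a1: acaggaacgggGCGCATGCgcgctctcgct
Atp5g2: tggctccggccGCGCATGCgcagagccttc

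The members with an ETS core had a median log2 ratio of 1.02 and those without it 0.83. For the YY1 core the medians were 0.70 and 0.91, and for the RUNX core, with 8 members, 1.20 and 0.86. Further stretches are shown for Sdhd and Ndufaf1, which had the largest ratios in complex II and among the assembly factors, and for Ndufs7 from the complex I core. Capitals mark the ETS core (reverse complement CTTCCGG) in Sdhd and the RUNX core (TGTGGT or its reverse complement ACCACA) in the others. The Ndufaf1 stretch also holds an ETS core, in lower case, shortly after the RUNX letters. Sdhd lies at chr9:50603877-50603906 (minus strand), Ndufaf1 at chr2:119662842-119662871 (minus strand) and Ndufs7 at chr10:80249365-80249394 (plus strand), and the Ndufs7 window holds the RUNX core at 3 places.
Sdhd: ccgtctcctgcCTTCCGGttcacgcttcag
Ndufaf1: aaaagtagcgggACCACAaccggaagcgtg
Ndufs7: aaccactcggctTGTGGTgcgggtttccgc

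Other nuclear genes for mitochondrial proteins showed ratios of the same order. The 76 mitochondrial ribosomal protein genes, whose products translate the chain's mitochondrially encoded subunits, had a median log2 ratio of 1.23 between populations 4 and 1. Of these, 51 (67.1%) were at least 2-fold higher, compared with 22.4% of all genes. The 76 genes ranged from Mrps6 (1529, 1682, 1814 and 987) to Mrpl41 (429.8, 668, 701 and 1904). For 14 genes of electron carriers and ubiquinone synthesis the median was 1.26, with 9 (64.3%) at least 2-fold higher. The 14 ranged from Etfdh (1.33-fold) to Dhodh (4.35-fold), which feeds electrons from pyrimidine synthesis into ubiquinone. Assembly factors outside the Nduf family had a median of 1.06 over 33 genes, with 21 (63.6%) at least 2-fold higher. Cox17, the copper chaperone of complex IV, was 4.62-fold higher, while Sco2, another copper protein for the same complex, read 193, 199, 159 and 80.0.

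Protein import genes had a median of 1.08 over 24 genes, from Tomm20 (1.10-fold) to Timm8a1 (4.89-fold), with 14 (58.3%) at least 2-fold higher. The 17 tricarboxylic acid cycle genes had a median of 0.90, and 7 (41.2%) were at least 2-fold higher. The 17 ranged from Idh2 (1329.6, 1379.5, 1564 and 851) to Idh3a (516, 733, 671 and 1854). The regulators of mitochondrial gene expression and biogenesis had a lower median, 0.58 over 19 genes. Of these, 4 (21.1%) were at least 2-fold higher, close to the 22.4% of all genes. Tfam, which packages mitochondrial DNA, read 685, 1018, 1226 and 1865, whereas Polg, its polymerase, read 721, 1095, 1082 and 596.

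Lists from outside the mitochondrion had lower medians on these arrays, and no difference between lists was tested. The 46 cytosolic ribosomal protein genes had a median log2 ratio of 0.03. Among them 2 (4.35%), Rpl14 and Rpl7l1, were at least 2-fold higher, compared with 22.4% of all genes. Only Rpl14 (2.68-fold) is a standard ribosomal subunit. The median of this list was -0.26 after centring, 0.02 after quantile normalisation and 0.36 with the hybridisation controls. By mean signal, 30 of the 46 were brighter than every member, a range in which the members give no comparison. The 6 in the range of the 29 brightest members had a median of 0.08, against 0.61 for those members, and the 9 in the range of the 28 dimmest had a median of 0.42, against 1.16. The 13 vacuolar ATPase genes, which encode the proton pump of lysosomes and share an architecture with complex V, had a median of 0.44. Atp6v1c1 (2.29-fold) was the only gene of this list at least 2-fold higher (7.69%). At the step from population 3 to 4, the medians were 0.34 for the respiratory chain, 0.63 for mitochondrial ribosomal proteins, -0.02 for cytosolic ribosomal proteins and 0.21 for the vacuolar ATPase.

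**Figure D4:**
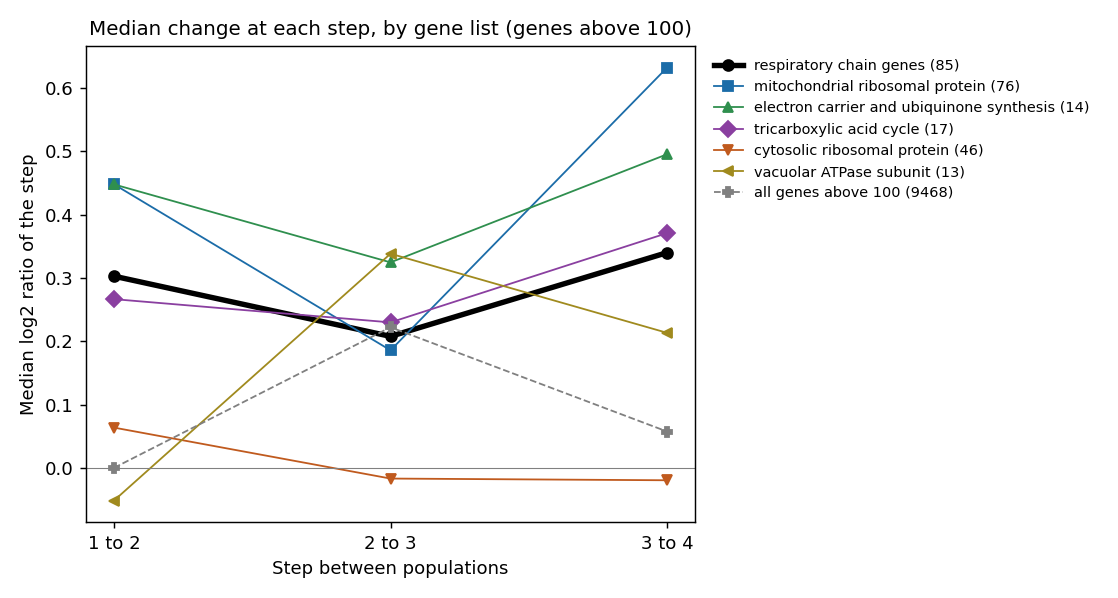
Median log2 ratio (vertical axis, signals raised to 100) at each step between neighbouring populations (horizontal axis) for the respiratory chain genes, 5 other gene lists and all genes above 100, with the number of genes in brackets and 1 array per population. The respiratory chain line, at 0.30, 0.21 and 0.34, lies above that of all genes (0.00, 0.22 and 0.06) at the first and last steps and meets it at the middle step, and the cytosolic ribosomal line stays near 0.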

How the data were processed

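RNA of 4 sorted populations was hybridised to Affymetrix Mouse Genome 430 2.0 arrays, 1 per population. The authors deposited 1 signal intensity per probe set on a linear scale, and the submitters' processing notes name MAS5 and GCOS 1.3. Neither the scaling target nor any masking or detection call is given in the sources used here. The number of arrays limits the precision. Of 45101 probe sets, 34958 had 1 gene symbol, 932 had several and 9211 had none in the annotation used, and the last 2 kinds were left out. Symbols were updated by gene identifier to RefSeq GRCm38.p6.

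Genes without a probe set named for them alone were not analysed here. Ratios used signals of at least 100, and a gene was counted at 2-fold or more. Named were all members 2-fold different in any of 4 comparisons, the extremes of each complex, isoform families, complex II, members near the minimum and genes listed by the study beside Runx1 binding, besides the extremes of other lists. Further members were named after their values were seen. Members and lists were chosen with earlier results of these data known. Alternatives covered scaling, probe sets, the raised signal, the minimum and the fold, and scripts were checked on simulated data. Python 3.11.15, pandas 2.3.3 and numpy 2.4.6 were used.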

Additional observations from a re-analysis of the deposited data

How the results depend on the processing

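The median log2 ratio of the members in population 4 over population 1 (0.86) was 0.57 after centring each array on its median, 0.605 after quantile normalisation, 1.19 after scaling on 18 hybridisation controls and 0.53 once the median of genes of like signal was subtracted, an alternative chosen after seeing the data. For population 3 over population 2 (0.21) it reversed to -0.0986 after centring, and was 0.0308 after quantile normalisation and 0.58 with the controls. The count of members that reached 2-fold between populations 1 and 4 (32) became 15, 17, 60 and 11 under these 4 alternatives and 65 at 1.5-fold. The shares of all genes were then 14.4%, 15.1%, 34.6%, 11.5% and 39.6%, beside 17.6%, 20.0%, 70.6%, 12.9% and 76.5% of the members. At 1.5-fold the other counts were 9 (population 2 over 1, higher), 3 (population 3 over 2, higher), 17 (population 4 over 3, higher) and 1 (population 4 over 3, lower). The count for population 2 over 1 was 1 with the mean over probe sets and 2 with signals raised to 50. That for population 3 over 2 was 3 with the controls and 0 with signals raised to 200. Shares of all genes were not computed for these single steps under the alternatives. These step counts therefore do not set the members against all genes. Members higher at every step (65) numbered 17 after centring and 41 after quantile normalisation, also chosen after seeing the data. The cause was not tested beyond what each alternative does by construction. The remaining 103 recomputed summary values stayed within the limits set. Among further recomputed values outside these summaries, 230 stayed within the limits and 187 moved beyond them. Without replicates, no setting gives an error between populations, and signals near or under 100 bound the ratios of Cox6b2, Cox7a1, Ndufaf5 and Ndufaf7 from below. After centring, Atp5g2, Atp5g3, Cox4i1, Cox6a1, Cox7a2l and Cox8c were lower in population 4 than in population 1 by their chosen probe sets. A second Cox6a1 probe set was 1.83-fold higher as deposited. No paired analysis was possible because each population had 1 array.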

Other observations

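Atpif1, the inhibitor of ATP synthase, lies outside the symbol rule and was looked up after the other values were seen. Its signals were 2088, 2981, 3466.5 and 5749 in populations 1 to 4, 2.75-fold apart between the ends. A probe set for ND5, a complex I subunit encoded in mitochondrial DNA, read 6981, 6485, 7655 and 7434, or 1.06-fold, and was also looked up after the fact. This single probe set gives no account of the other mitochondrially encoded genes.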
